A study of Mus musculus with 6 samples.

Results

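The 264 DNA probes described here carry an ETS-CRE composite site whose first base was replaced, either alone or together with 1 substitution in the CRE. They were chosen by sequence alone: every designed 60-base probe with the 16-mer at base 11 (middle placement) or base 21 (inner placement), on either strand, with a change at position 1 and at most 1 further change at positions 10 to 16. Positions count from 1 at the 5′ end of the 16-mer, and A1C means that A at position 1 was replaced by C. This gives 66 variants, 3 single and 63 double, out of 1128 single and double variants of the 16-mer, and 264 of the 6889 custom sequences on the array.

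The study addressed how GABPα and CREB1 bind composite motifs together, on custom Agilent protein binding microarrays whose probes had been made double-stranded. Fluorescence (Cy5) reports a protein that carries a glutathione S-transferase (GST) tag at its N-terminus. There were 3 groups of 2 arrays each: tagged wild-type mouse GABPα alone, tagged GABPα produced together with untagged CREB1, and tagged CREB1 alone. In the mixed group the tag therefore reports GABPα and not CREB1. Only the DNA-binding domains were used. In vitro translation of each tagged protein used 570 ng plasmid and ran 2 h at 37 °C. Of the 250 µl reaction, 230 µl went onto an array, and mixed reactions also received 66 ng of a pT5 plasmid encoding CREB1. The labels give the domain class of all 6 samples as bZIP, although GABPα belongs to the ETS family, and they leave unsaid whether a group's 2 arrays used different batches of protein. The p-values therefore measure the spread between these arrays, which may be technical and in some tests was pooled over all variants. Protein amounts on the arrays were not analysed here.

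ETS factors such as GABPα contact a GGAA core in the major groove, and the bases just before that core modulate how tightly each family member binds. CREB1, a bZIP protein, recognises the palindromic cAMP response element (CRE), TGACGTCA, as a dimer. In the composite site the ETS motif runs directly into the CRE, so that the T at position 9 belongs to both, and position 1 is the base of the ETS motif farthest from the CRE.

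The unmutated site and the 3 single changes at position 1 are shown with the altered base in capitals, followed by the doubles on which the results below turn.
Unmutated site: ACCGGAAGTGACGTCA
A1C: Cccggaagtgacgtca
A1G: Gccggaagtgacgtca
A1T: Tccggaagtgacgtca
A1T+C15A: TccggaagtgacgtAa
A1G+C15A: GccggaagtgacgtAa
A1C+A16T: CccggaagtgacgtcT
A1G+A11C: GccggaagtgCcgtca
A1C+C12A: CccggaagtgaAgtca
A1G+G13T: GccggaagtgacTtca

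The 4 placements put different bases in front of position 1. The whole probes with the unmutated site in capitals show this, as written on the array, so that the reverse probes carry the site's complementary strand and their position 1 is the last capital.
Middle forward: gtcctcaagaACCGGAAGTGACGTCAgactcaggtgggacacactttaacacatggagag
Middle reverse: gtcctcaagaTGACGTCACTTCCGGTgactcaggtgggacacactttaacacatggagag
Inner forward: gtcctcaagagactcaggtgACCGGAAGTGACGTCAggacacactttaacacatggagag
Inner reverse: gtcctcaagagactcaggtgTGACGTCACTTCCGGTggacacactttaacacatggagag
Read along the strand of the 16-mer, the base before position 1 is A in the middle forward, C in the middle reverse, G in the inner forward and C in the inner reverse placement. All other bases of the 4 probes are the same in every variant of a placement.

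Each array held 179966 spots, with 24 spots for every one of the 264 sequences (15 to 24 used after outlier spots were left out) and 48 for each unmutated probe (45 to 48 used). Where a probe was dim, a fold written as at least N-fold takes the lowest signal above background in its place. Such a value is a limit only within the scanner's processed signal, and the deposited table, with another background subtraction, can give a smaller change. Signals are log2 of the scanner's processed intensity, scaled to the array's 75th percentile of sequences above background on all arrays. A sequence was called above background where over 0.5 of its spots passed the scanner's test, and a variant where the mean share over its 4 placements did so on both arrays of a group. Of all sequences, 16.7% to 23.9% passed where GABPα was tagged, compared with 55.3% and 59.3% where CREB1 was. A variant's effect is the log2 distance of its probe from the unmutated probe of that placement and array, averaged over the 4 placements, so 0 is the unmutated level and scaling between arrays cancels. All effects on an array share its unmutated probes. The 66 effects correlated between the 2 arrays of a group at r = 0.994 for GABPα alone, 0.995 with CREB1 and 0.999 for CREB1 alone, over variants that share arrays and are not replicates. Per the file headers, the first arrays of GABPα alone and GABPα with CREB1 lay on 1 slide and the second arrays on another. Each CREB1 array lay on a slide of its own and was scanned apart, so for CREB1 alone against the other groups the protein and the slide or scan cannot be told apart.

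With GABPα alone, every change at position 1 lowered the signal, and the size of the loss depended on the new base. G was tolerated best, and C and T took most probes down to background. A1G changed the signal by -1.05 on the first array and -1.14 on the second. A1C gave -2.14 and -2.53, and A1T gave -2.81 and -3.23. The A1G values lay above both A1C values, and those above both A1T values, with no overlap. The mean effects were -1.09 ± 0.06 (SD, n = 2) for A1G, -2.34 ± 0.27 for A1C and -3.02 ± 0.30 for A1T, with adjusted p of 2.48e-16, 9.19e-67 and 1.82e-107 in limma. These very small p-values come from a fit that shared 1 SD of 0.187 over all 1128 variants. Only A1G was above background as a variant (3 of 4 placements on both arrays), so A1C and A1T are known within the processed signal as at least 3.41-fold and at least 4.09-fold losses, and A1G as at least 2.13-fold. In the deposited value table, which was made with another background subtraction, A1G kept 64.0% and 58.2% of the unmutated intensity. A1C kept 45.1% and 33.6%, and A1T 36.7% and 24.1%, so the order was the same. The losses were smaller than those bounds, except for A1T on the second array, which lay close to its bound.

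All 66 variants were called lower than the unmutated site with GABPα alone (limma, adjusted p under 0.05), against 82.6% of all 1128 variants, so the count itself does not set position 1 apart. Effects ran from -1.63 (A1G+A11T) to -0.43 (A1G+G13T) over the 22 variants with G, with a median of -1.08. For C they ran from -2.91 (A1C+G10C) to -1.47 (A1C+G13T), median -2.34, and for T from -3.32 (A1T+A11T) to -2.12 (A1T+G13T), median -2.91. All 22 variants with G were above background, 1 with C (A1C+G13T) and 0 with T. Of the 21 single CRE substitutions, 0 were called lower with GABPα alone (limma) and all 21 were above background.

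The strongest 4 among variants above background were A1G+A11T, A1G+G10C, A1C+G13T and A1G+T14C, with losses of at least 2.73-fold, 2.87-fold, 2.71-fold and 2.54-fold. The mildest 4 had all placements above background: A1G+G13T (-0.32 and -0.54, 1.35-fold), A1G+G13C (-0.74 and -0.83, 1.73-fold), A1G+G13A (-0.76 and -0.89, 1.77-fold) and A1G+C12T (-0.79 and -0.92, 1.81-fold). Position 13 is the second base of the CRE's central CpG, and its 3 substitutions were the 3 mildest partners of G. The change G13T raised GABPα alone at the intact position 1 as well, by 0.27 (limma, adjusted p = 0.0486). Beside A1C, A1G and A1T its value relative to the single was 0.87, 0.66 and 0.90. The values beside A1C and A1T rest largely on dim probes. With these at the lowest signal above background, losses were 3.41-fold for A1C and 2.71-fold for A1C+G13T. They were 4.09-fold for A1T and 3.2-fold for A1T+G13T. G13T is the single change that spells GAAGT, the letters of positions 5 to 9, a second time on the other strand. These letters occur on the other strand of 34 of the 1128 variants (3.01%) and in 3 of the 66 described here. The match is a description of the letters only.

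The loss also depended on where the site lay on the probe. A1G with GABPα alone gave -1.35 and -1.49 in the middle forward, -0.46 and -0.55 in the middle reverse, -1.66 and -1.55 in the inner forward and -0.73 and -0.95 in the inner reverse placement. Losses were thus larger in the forward than in the reverse probes of the same distance, on both arrays. A1T in the middle reverse placement was the only T single above background on both arrays, at -1.50 and -2.18, and A1C there gave -1.01 and -1.41. In that placement all 3 bases were measured, and the order G, C, T held on each array. In the inner placements A1C and A1T were below background on both arrays, where they are known as at least 4.23-fold losses (forward) and at least 2.98-fold losses (reverse). Of the 66 variants, 63 were above background in the middle reverse placement with GABPα alone, 34 in the middle forward, 17 in the inner reverse and 12 in the inner forward. No placement effect was tested, since the probes differ in strand, distance and neighbouring bases together.

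With CREB1 present, the losses at position 1 were moderate. The effects were -0.55 and -0.51 for A1G, -0.88 and -0.66 for A1C and -1.06 and -0.82 for A1T, and all 4 placements of each were above background on both arrays. The first and second arrays of A1C and A1T overlapped with each other in range, while A1G lay above all of them. The losses were 1.44-fold for A1G (-0.53 ± 0.03, SD, n = 2), 1.70-fold for A1C (-0.77 ± 0.15) and 1.92-fold for A1T (-0.94 ± 0.17), with limma adjusted p of 7.03e-05, 6.67e-09 and 1.70e-12. In the deposited table A1G kept 68.9% and 71.8% of the unmutated intensity, A1C 60.8% and 66.0%, and A1T 55.8% and 60.1%. All 66 variants were again called lower, against 98.8% of all variants.

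With CREB1, the signal that a position 1 variant kept differed widely with the second change in the CRE. Of the 66 variants, 57 were above background with CREB1 and 23 without it. The mildest were A1G+C15A (-0.52 and -0.38, 1.37-fold), A1G itself, A1C+C15A (-0.76 and -0.61, 1.61-fold) and A1G+C15T (-0.77 and -0.61, 1.61-fold), all of them with an intact CRE or a change at its second-last base. The strongest among those above background were A1C+C12A, A1C+A11T, A1T+A11G and A1T+T14G, at least 4.95-fold, 4.49-fold, 4.35-fold and 4.21-fold lower. For A1T doubles, the mean effects of the 3 substitutions per position were -3.16, -3.03, -2.35 and -2.16 at positions 10 to 13, -1.86 at position 14, and -1.06 and -1.29 at positions 15 and 16. The same means were -2.62, -2.47, -1.95, -1.81, -1.52, -0.88 and -1.06 beside A1C and -1.73, -1.72, -1.31, -1.16, -1.05, -0.63 and -0.76 beside A1G. Beside each of the 3 bases the signal was lowest at positions 10 and 11, next to the ETS motif, and highest at positions 15 and 16. All 27 doubles at positions 14 to 16 were above background with CREB1, and at positions 10 to 13 it was 12 of 12 with G, 9 of 12 with C and 6 of 12 with T.

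The difference in effect between the groups was tested directly on the 4 arrays with tagged GABPα, as the effect with CREB1 minus the effect with GABPα alone. The 3 singles lost less with CREB1. On the first and second slide the difference was 1.27 and 1.87 for A1C, 0.50 and 0.63 for A1G, and 1.75 and 2.42 for A1T. Its means were 1.57 for A1C (SE 0.154, adjusted p = 2.19e-22), 0.57 for A1G (adjusted p = 2.88e-04) and 2.08 for A1T (adjusted p = 3.03e-38) in limma, and both slides agreed in sign for each. This fit shared 1 SD of 0.154 over all 1128 variants, so a variant's own spread did not enter its p-value. Of these variants, 759 were above background in neither group. A1C and A1T were below background with GABPα alone, and with dim probes at the lowest signal above background their differences were 1.0 and 1.09 in the processed signal. With normexp background correction the differences were smaller, 0.67 for A1C, 0.28 for A1G and 0.94 for A1T, and that of A1G did not pass (limma). In the deposited table the differences were 0.43 and 0.98 for A1C, 0.11 and 0.30 for A1G, and 0.60 and 1.32 for A1T. None of the 3 passed there (limma, all 1128 variants).

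Over the whole group of 66, 36 variants had a higher effect with CREB1 and 14 a lower one (limma, adjusted p under 0.05), and 16 passed in neither direction. With normexp background correction 16 were higher and 17 lower, so higher calls no longer outnumbered lower ones. Among all 1128 variants 11.9% were higher and 81.6% lower. Much of that background is not measured signal, since 696 of the 921 lower calls were variants above background in neither group. Of the 369 variants above background in either group or both, members included, 28.2% were higher and 61.0% lower. Of the 57 members among them, 36 were higher and 8 lower. The median difference was 0.35 over the members and -0.84 over all variants. Of the 36 higher calls, 28 kept their sign when dim sequences were set to the lowest signal above background, and 4 were above background in both groups. With the shared slide as a block, 29 of the 36 and 11 of the 14 still passed. No member passed in the deposited table, where 21 of the 36 and all 14 had the same sign on both slides, and leaving out dim sequences there gave 13 higher and 10 lower.

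The calls were split by the position of the partner. Beside C and T, all 18 doubles at positions 14 to 16 had a higher effect with CREB1, and beside G it was 3 of 9, with 0 lower in each case. All 18 were below background with GABPα alone. With dim probes at the lowest signal above background, A1T+T14G took the opposite sign (-0.44). In the deposited table A1C+T14C, A1C+T14G and A1T+T14G were below 0 on the first slide (-0.07, -0.10 and -0.05) and above it on the second. At positions 10 to 13, 6 of 12 doubles were higher and 4 of 12 lower beside C, the same counts beside T, and 0 higher and 6 lower beside G. Beside C and T these calls rest largely on dim probes: 6 of the 8 lower calls were above background in neither group, and 7 of the 12 higher calls and 4 of the 8 lower ones took the opposite sign with dim probes at the lowest signal above background. A1C+A11T, called higher, was lower on both slides in the deposited table (-0.36 and -0.07). The largest higher values measured in both groups were A1G (0.57), A1G+C15A (0.42, adjusted p = 6.70e-03), A1G+A16G (0.39) and A1G+C15G (0.36), and no other member above background in both groups passed as higher. With the slide as a block, A1G+A16G and A1G+C15G no longer passed (limma, adjusted p = 0.0627 and 0.0871). In the deposited table the first slide gave -0.04 for A1G+C15A, -0.09 for A1G+A16G and -0.03 for A1G+C15G, and the second 0.33, 0.24 and 0.19. A1G+C15A gave -0.79 and -0.97 without CREB1 and -0.52 and -0.38 in its presence, so its groups did not overlap. Among variants dim with GABPα alone, the largest difference with dim probes at the lowest signal above background was that of A1T+C15A at 1.16, then A1T and A1C. The deposited table gave 0.72 and 1.37 for A1T+C15A. A1T+C15A gave -2.69 and -2.91 with GABPα alone, below background, and -0.87 and -0.71 with CREB1, where all 4 placements were above it.

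Among variants above background in both groups, the largest lower values all had a substitution at positions 10 to 13. A1G+A11C gave -1.04 and -1.11 with GABPα alone and -2.11 and -1.96 with CREB1, a difference of -0.96 (adjusted p = 2.48e-09). A1G+G13T gave -0.32 and -0.54 alone and -1.38 and -1.33 with CREB1, a difference of -0.92 (adjusted p = 1.04e-08). A1G+C12A differed by -0.72, A1G+G10C by -0.69 and A1C+G13T by -0.57. In each of these 5 both arrays with CREB1 lay below both arrays without it. The same 4 CRE changes without a position 1 change also had a lower effect with CREB1, A11C by -1.02, G13T by -1.02, C12A by -0.98 and G10C by -0.94, as did 16 of the 21 CRE singles. Dim placements enter some of the double values. With CREB1, 3 of 4 placements of A1G+A11C and A1C+G13T and 2 of A1G+G10C were above background on both arrays. With GABPα alone it was 2 for A1G+G10C and A1C+G13T. With dim probes of the CREB1 group at the lowest signal above background, the differences were -0.96 for A1G+A11C, -0.58 for A1G+G10C and -0.555 for A1C+G13T. In the deposited table A1G+A11C kept 35.9% and 33.2% of the unmutated intensity with CREB1, against 66.9% and 55.7% without it. The count of 14 lower calls was 6 without the first array of GABPα alone.

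How well CREB1 itself bound a variant was measured on arrays that enter none of these differences. Over the 22 variants with a given base at position 1, the difference in effect correlated with the effect of CREB1 alone at r = 0.791 (Spearman rho = 0.822) for C, 0.836 (0.864) for G and 0.766 (0.787) for T, and at 0.770 (0.773) over the 21 CRE singles. The slope of the difference per log2 unit of CREB1 signal was 0.51 for C, 0.37 for G and 0.63 for T against 0.26 with position 1 intact. The points share their arrays and, within a position, their neighbouring bases, so these are descriptions of 22 or 21 sequences, and the slopes were not compared by a test. Variants below background hold the lower part of the scatter for C and T. With GABPα alone, only 1 of 22 variants with C and 0 with T were above background, against all 22 with G and all 21 CRE singles. The value subtracted in nearly every point for C and T is thus dim, and this enters their slopes.

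The order of the 3 bases was compared within the same CRE context, with and without CREB1. With GABPα alone, all 66 contrasts passed (limma, against 21.7% of all 2208 base contrasts on the 16-mer), each in the order G over C over T on both arrays. The median over 22 contexts was 1.24 for G minus C, 1.81 for G minus T and 0.58 for C minus T. With C and T set to the lowest signal above background where dim, G minus C and G minus T remained above 0 in all 22 contexts, with medians of 0.68 and 0.89. C minus T remained above 0 in only 2 of 22, so in the other contexts the order of C and T is not bounded by signal above background. With CREB1, 64 of 66 contrasts passed (background 41.3%), with medians of 0.46, 0.89 and 0.33. The exceptions were G minus C in the intact CRE (0.24, adjusted p = 0.0777) and C minus T beside C15A (0.11, adjusted p = 0.218).

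With CREB1, G was the highest base in most contexts of each placement, while C and T did not keep an order between placements. G lay above T on both arrays in 20 to 22 of 22 contexts in each placement and above C in 16 to 22. C lay above T on both arrays in 20 and 21 contexts of the inner forward and inner reverse placements, but in 10 and 9 of the middle forward and middle reverse, where T lay above C in 7 and 8. With the 2 middle placements alone, 37 of 66 contrasts passed, 2 of them against the order G, C, T. The step from G to T was smaller with CREB1 than without it in the test of the difference, by -1.52 (adjusted p = 5.80e-03) in the intact CRE and in 19 of 22 contexts. For G minus C the change was -1.0 (adjusted p = 0.0123), with 19 of 22 called, and for C minus T -0.52 (adjusted p = 1.14e-03), with 10 of 22 called. Of all 2208 base contrasts 28% changed in either direction, and dim values with GABPα alone enter these changes. Beside G10A the step from G to T was 1.72 with CREB1 and 1.84 without it, the smallest change of the 22 (-0.13, adjusted p = 0.0525).

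Departures from additivity, the double's effect minus the sum of its 2 singles, show whether a position 1 change alters what a CRE change costs. With CREB1, many CRE changes at positions 10 to 13, and few at positions 14 to 16, departed downward beside a position 1 change. Of the 63 doubles, 32 departed downward and 0 upward (limma), against 25.4% and 52.2% of all 1080 doubles (77.6% in either direction), and the 32 lay below 0 also with dim sequences at the lowest signal above background. By position, 28 of the 36 doubles at positions 10 to 13 departed downward and 4 of the 27 at positions 14 to 16. Among the 54 doubles for which the double and both singles were above background, 23 were negative and 0 positive (26.8% and 20.2% of all 332 such doubles), and among the 34 with every placement above background 3 were. Most of the 32 thus include a placement below background.

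Among doubles above background with both singles, 3 were named for the largest departures with CREB1. They were A1T+A11G at -0.94 (limma, adjusted p = 2.78e-08), A1C+A11T at -0.91 (adjusted p = 1.14e-07) and A1C+C12A at -0.89 (adjusted p = 6.62e-08). Each of these doubles had at least 1 placement below background. With dim sequences at the lowest signal above background their departures were -0.51, -0.50 and -0.58. With CREB1, A11G cost -0.67 in the intact site and -1.61 beside A1T, A11T cost -0.90 and -1.81 beside A1C, and C12A cost -0.96 and -1.85 beside A1C. The costs beside A1T and A1C include the dim placements. Departures beside C, G and T were 0.011, -0.001 and 0.073 for C15A and 0.030, 0.069 and -0.043 for A16G, none of which passed. The departure was lower with CREB1 than with GABPα alone for 35 of 63 doubles and higher for 0 (background 39.1% and 31.6%), a test added after the others had been seen. For A1T+A11G this change was -1.12, for A1C+C12A -0.96 and for A1C+A11T -0.50.

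With GABPα alone the departures were few and small where they could be measured. Of the 63 doubles, 6 were negative and 13 positive (3.33% and 33.1% of all doubles), but in only 21 were the double and both singles above background, and of these 3 were negative and 3 positive (2.06% and 3.7% of all 243 such doubles). The negative ones were A1G+A11T (-0.39, adjusted p = 5.86e-04), A1G+G10C (-0.30) and A1G+G10T (-0.21). The positive ones were A1G+G13T (0.39, adjusted p = 6.32e-04), A1G+G13C (0.33) and A1G+G13A (0.23). All 3 positive doubles thus changed position 13. No double had every placement above background with both singles, the count fell to 8 without the second array of GABPα alone, and it was 1 after normexp and 0 in the deposited table (limma).

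For CREB1 alone, no change at position 1 passed in the intact CRE. The singles gave -0.02 and -0.06 for A1C, -0.02 and -0.04 for A1G, and -0.03 and -0.04 for A1T, and none passed (adjusted p = 0.858, 0.880 and 0.870). The 95% interval of A1C ran from -0.30 to 0.22, that of A1G from -0.29 to 0.23 and that of A1T from -0.29 to 0.23. Up to 33.3% of the spots of a member sequence and up to 25.0% of the unmutated spots were saturated, and the part of saturation in these values was not tested. All 63 doubles were lower (background 78.8%), with medians of -1.48, -1.46 and -1.51 over the 22 variants with C, G and T. The lowest were A1T+G13T (-4.09, at least 15.7-fold), A1G+G13T (-4.02), A1C+G13T (-4.00, at least 14.6-fold) and A1C+C12A (-3.97, at least 14.5-fold), and the mildest double was A1T+C15A (-0.39, 1.31-fold).

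Of the base contrasts at position 1, 3 of 66 passed with CREB1 alone, against 70.2% of all base contrasts. Departures were negative for 17 of 63 doubles and positive for 0 (background 24.2% and 7.04%, or 31.2% in either direction), and every one of these doubles was above background with both singles, where the background was 21% and 6.69%. The negative share is thus close to the background. The largest were A1T+G13T (-0.62, adjusted p = 1.18e-04), A1G+G13T (-0.55, adjusted p = 4.00e-05) and A1C+G13T (-0.53, adjusted p = 2.08e-04), in which CREB1 signal was at background in 1 or 2 placements. The 17 became 8 and 3 when the first or second CREB1 array was left out.

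Adding CREB1 was also compared per sequence, as the scaled signal of GABPα with CREB1 minus that of GABPα alone. This rests on the scaling between arrays, which cancels in the effects above. Of the 264 sequences 146 were higher and 1 lower (limma over 10812 sequences), against 6.73% and 3.58% of all sequences. Only 16.7% to 23.9% of all sequences were above background on an array with tagged GABPα, so most of that comparison set was dim. The share among sequences above background was not computed. By base, 52 with C, 36 with G and 58 with T were higher, and by placement 42 middle forward, 25 middle reverse, 37 inner forward and 42 inner reverse. In 58 of the 146 both groups were above background on both arrays, with increases of 0.52 to 1.79 and a median of 1.11. A further 64 went from below to above background, by at least 1.33-fold to at least 5.30-fold. The unmutated site itself was higher by 0.82 and 0.49 on the 2 slides, as the mean over the 4 placements.

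The largest measured increases lay in the middle forward probe with C at position 1, and each had a change at positions 15 or 16. A1C+A16T gave -2.29 and -2.26 with GABPα alone and -0.41 and -0.57 with CREB1, a 3.45-fold increase (1.79, SE 0.079, adjusted p = 5.94e-03). A1C+C15G rose 3.30-fold, A1C+C15A 3.21-fold, A1C+A16G 3.17-fold, and A1T in the middle reverse probe 3.03-fold. Within the processed signal, the largest limits were again middle forward: A1T+C15A (at least 5.30-fold), A1T (at least 5.09-fold) and A1T+A16G (at least 4.70-fold). In the deposited table A1T+C15A read 1696.75 and 2264.0 intensity units with GABPα alone and 4395.75 and 5579.5 with CREB1 in that probe. These unscaled increases are 2.59-fold and 2.46-fold on the 2 slides, smaller than the processed signal's limit. The 1 sequence called lower was A1G+A11C in the inner forward probe (-0.46, adjusted p = 0.0362), which went from above to below background.

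The number of higher calls per sequence varied with the arrays and the scaling. Leaving out either array of GABPα alone gave 0, leaving out the first or second array with CREB1 gave 44 or 50, and the shared slide as a block gave 80. With the percentile taken over all spots, 74 were higher and 45 lower, with no scaling 54 and 0, with quantile scaling 58 and 0, and the deposited table gave 0 and 0 (limma).

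Position 1 was the most tolerant of the ETS-side positions for GABPα. Averaged over the 3 substitutions alone and with each CRE change, the effect with GABPα alone was -1.98 and -2.22 on the 2 arrays at position 1. It was -3.66 and -3.91 at position 2 and -2.96 and -3.12 at position 8, the base before the CRE. The difference from position 1 was 1.68 for position 2 (adjusted p = 4.41e-07), 0.94 for position 8 (adjusted p = 6.08e-07), and 1.60 to 1.97 for positions 3 to 7, all 7 of them called in limma, as were 89.3% of all 28 pairs of positions. With CREB1 position 1 averaged -1.65, position 2 -3.30 and position 8 -3.33, and the differences from position 1 were 1.65 and 1.68, with all 7 called (92.9% of all pairs). With GABPα alone 0 of 66 variants at positions 2 to 7 and 19 of 66 at position 8 were above background, against 23 at position 1, so most of these means include signal at background. With CREB1 it was 25 at position 2 and 23 at position 8, against 57 at position 1. The mean at position 2 was also higher with CREB1, at -3.30 against -3.785 alone, compared with -1.65 and -2.10 at position 1. At position 8 it was lower, at -3.33 against -3.04. These shifts of position means were not tested. For CREB1 alone 4 of 7 were called (78.6% of all pairs): position 1 averaged -1.63 and position 8 -2.24, while the difference from position 2 was 0.01 with a 95% interval from -0.08 to 0.11.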

How the data were processed

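Scanner files from 6 arrays were used. Per the file headers, the scanner's processed intensities are linear Cy5 signals from Agilent Feature Extraction 12.0.1.1, with a fitted background surface subtracted, detrending, and surrogate values for dim spots. Spots were called well above background at 13 SD. The deposited value table holds the median intensity of each probe minus local background, recomputed here within 0.01 for 6891 of 6891 entries per array. Outlier spots (2.26% to 4.55%) and controls were left out. The percentile used for scaling was taken over spots of 1143 sequences. Where a sequence was dim, its loss was bounded by the array's lowest signal above background. Tests used limma 3.58.1 (lmFit, eBayes, Benjamini-Hochberg, threshold 0.05) in R 4.3.3 and Python 3.11.15. Fits were checked on simulated data. Effects, departures, base contrasts and position means used all 6 arrays, and comparisons with and without CREB1 used 4. For 2 against 2 arrays the smallest p of exact permutation is 0.333, and it was not used. Headers place same-numbered tagged-GABPα arrays on shared slides, which is the source of the pairing, yet their deviations correlated at r = -0.366. The number of arrays limits the precision.

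Members were defined by sequence alone, but that rule and the lists were set with earlier results of these data known. Variants were named by rule: the 3 singles, the 4 mildest and 4 strongest per group above background, the 5 largest called differences each way above background in both groups and the 3 largest bounds, the 5 largest changes per sequence each way and 3 largest bounds, the 3 largest called departures each way per group, and CRE substitutions by their values beside the 3 bases. Variants named only as the end of a range were chosen after their values were seen. A test of departures and of base contrasts with and without CREB1 was added later. Alternatives were the background correction, the deposited table, dim sequences, spot summary, outliers, scaling, sequences tested, intensity trend, placements, arrays in the fit, the replicate block and leaving out each array.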

Additional observations from a re-analysis of the deposited data

Results flagged for a closer look

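The following results differed between GABPα with CREB1 and GABPα alone in the test of the difference itself (limma). The effects of the 3 singles differed by 1.57 for A1C, 0.57 for A1G and 2.08 for A1T, and that of A1T+C15A by 2.01 (1.16 with dim probes at the lowest signal above background, and 0.72 and 1.37 on the 2 slides of the deposited table). Smaller gains among variants above background in both groups were 0.42 for A1G+C15A, 0.39 for A1G+A16G and 0.36 for A1G+C15G. Losses were -0.96 for A1G+A11C, -0.92 for A1G+G13T, -0.72 for A1G+C12A, -0.69 for A1G+G10C and -0.57 for A1C+G13T. The departure from additivity changed by -1.12 for A1T+A11G, -0.50 for A1C+A11T and -0.96 for A1C+C12A. The step between bases in the intact CRE changed by -1.0 for G minus C, -1.52 for G minus T and -0.52 for C minus T. All 3 singles, A1T+C15A, A1G+A16G, A1G+A11C, A1G+G10C, A1C+G13T and the 3 doubles with a departure have placements below background. This holds on at least 1 array of a group. Groups of 2 arrays are too small to look for single outlying arrays.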

How the results depend on the processing

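The counts that answer a comparison were recomputed under each alternative. Of these, 206 stayed within 1.5 times their value, 59 fell below and 9 rose above that. The sorting took only the size of each count, so it could not show a change of direction. The split of effects with CREB1 went from 36 higher and 14 lower to 16 higher and 17 lower after normexp. Single calls did change direction. In the middle placements alone, 2 base contrasts with CREB1 were called in the opposite direction. The difference of 1 called variant had the opposite sign on both slides of the deposited table. Signal over background limits the groups: 23 of 66 variants were above it with GABPα alone, 57 with CREB1 and 66 with CREB1 alone. After normexp, departures numbered 1 (GABPα alone), 19 (with CREB1) and 9 (CREB1 alone), effects with CREB1 16 higher and 17 lower, and sequences 47 higher and 0 lower. In the deposited table they numbered 0, 14 and 0, base contrasts and position contrasts for CREB1 alone 0 and 0, differences in effect 0 higher and 0 lower, and sequences 0 and 0. With dim sequences left out, 22 members were called lower with GABPα alone, with 4 departures, 1 base contrast, 9 lower effects and 2 lower sequences. Leaving them out of the deposited table, chosen after seeing the data, gave 22 lower members, 0, 12 and 0 departures, 1 (GABPα alone) and 0 (CREB1) base contrasts, 13 higher effects and 0 lower sequences. Fewer variants remain there by construction. Medians over spots gave 5 base contrasts for CREB1 alone, and with medians, outliers kept or other arrays in the fit 0 sequences were lower. An intensity trend gave 9 lower effects and 5 lower sequences. Middle placements alone gave 10, 10 and 3 departures, 37 (with CREB1) and 1 (CREB1 alone) base contrasts and 21 higher effects, and inner ones 27 departures and 11 base contrasts for CREB1 alone. Sequences were 74 higher and 45 lower with the percentile over all spots, 54 and 0 unscaled, 58 and 0 after quantile scaling, and 13 were lower with custom sequences only. With the replicate block, 80 sequences were higher and 0 lower, and the other counts stayed within 1.5 times. The crossed pairing, added after seeing the data, gave 76 and 0. Without each array in turn, departures ran from 8 to 17 (GABPα alone) and from 3 to 17 (CREB1 alone), base contrasts for CREB1 alone from 1 to 5, lower effects from 6 to 17, sequences higher from 0 to 146 and lower from 0 to 1. A lone array was then assumed to vary like the other groups. Position contrasts with dim sequences left out were not run. The causes were not tested.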
